A study of Mus musculus with 16 samples.

Results

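Intronic distal regions were stretches of open chromatin that lay inside the introns of protein-coding genes and away from any transcript start. The peaks of 16 lists, 1 list per ATAC-seq library, were merged wherever they shared at least 1 bp on chromosomes 1 to 19, which gave 291316 regions. Of these, 125367 held a peak in at least 4 lists, and 36101 of them (28.8%) were members: the midpoint fell in an intron of a protein-coding gene, no exon was overlapped, and the nearest edge was more than 3000 bp from any annotated transcript start (mm10, GENCODE). Read by the midpoint instead of the edge, the same distance gave 36887 regions. The other distal class, used here for comparison, held 35220 intergenic regions chosen with the same list and distance limits.

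The study asked what loss of p300 does to blood stem and progenitor cells that lack Tet2. Libraries were made from HSPCs (hematopoietic stem and progenitor cells) sorted from mouse bone marrow, frozen, thawed and cut with Tn5, an enzyme that inserts sequencing adapters into open DNA. Each genotype had 4 libraries, which GEO's labels call independent biological replicates, and each library pooled cells from a pair of age-matched mice of the same genotype. All mice carried floxed Ep300 on both alleles and were injected with poly(I:C). The WT group was Ep300 fl/fl with no Cre, P300KO was Mx1-Cre;Ep300 fl/fl, TET2KO was Ep300 fl/fl;Tet2-/-, and P300KO_TET2KO was Mx1-Cre;Ep300 fl/fl;Tet2-/-. Mx1-Cre is driven by an interferon-inducible promoter that is active in many cell types, the Tet2 allele was null in the germline, and every p300-deleted library carried Cre while no other did, so p300 loss and the presence of Cre cannot be told apart. In bulk cells, fewer cells with an open region and less opening in each cell cannot be told apart either.

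Enhancers are stretches of regulatory DNA that bind transcription factors and raise the output of a gene that may lie far away, and many of them sit in introns. ATAC-seq marks such stretches because DNA bound by factors is left free of nucleosomes. p300 is a lysine acetyltransferase that is recruited to enhancers and acetylates histones there, and Tet2 oxidises 5-methylcytosine, a step on the way to DNA demethylation that acts at enhancers in blood cells.

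The peak lists held 86039 to 137335 peaks each. GEO's labels name a merged peak file for replicates 1 and 2 of every genotype but not for replicates 3 and 4, and the libraries parted more by deposit set than by genotype, so every result is given with the set in view (set 1, replicates 1 and 2; set 2, replicates 3 and 4). What differed between the sets is not stated in the sources used here. In WT replicates 1 and 2 only 45.0% and 63.2% of peaks reached a −log10 q of 2. Of 10 HSPC marker genes, 8, among them Kit, Cd34, Flt3, Procr, Meis1, Mecom and Hlf, had a peak within 1000 bp of a start in all 16 lists, and Ly6a and Slamf1 had one in 15. Among markers of other cells, Ms4a1 (B cells), Ly6g (granulocytes) and Alb (liver) had a start peak in 0 lists, whereas Pax5, Cd79b, Lck, Cd3d, Mpo, Hbb-bt, Klf1, Apoa1, Ckm and Gfap had one in all 16, so a start peak alone did not mark a cell type.

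The sequences below show what the members with the most to say look like. Each runs from 50 bases before to 50 bases after the strongest summit of a region, read 5′ to 3′ from mm10. The first set comes from the strongest member of each of the 6 genes with the most members and holds none of the 10 searched strings.
Gm20388 intron, chr8:121585539-121585639, plus strand: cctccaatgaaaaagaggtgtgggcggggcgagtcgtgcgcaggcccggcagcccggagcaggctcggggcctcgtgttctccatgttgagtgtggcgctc
Fgfr2 intron, chr7:132551880-132551980, plus strand: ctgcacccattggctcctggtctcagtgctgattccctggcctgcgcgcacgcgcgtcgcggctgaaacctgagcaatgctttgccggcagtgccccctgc
Arid1b intron, chr17:5189801-5189901, plus strand: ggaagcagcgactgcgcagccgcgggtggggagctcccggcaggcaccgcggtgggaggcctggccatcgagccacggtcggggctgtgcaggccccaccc
Pde4d intron, chr13:109822522-109822622, plus strand: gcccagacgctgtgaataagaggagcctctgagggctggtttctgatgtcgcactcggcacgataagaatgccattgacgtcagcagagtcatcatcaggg
Foxp1 intron, chr6:99490031-99490131, plus strand: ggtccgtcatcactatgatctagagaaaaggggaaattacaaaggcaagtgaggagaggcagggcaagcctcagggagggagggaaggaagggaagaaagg
Gm37240 intron, chr3:84715173-84715273, plus strand: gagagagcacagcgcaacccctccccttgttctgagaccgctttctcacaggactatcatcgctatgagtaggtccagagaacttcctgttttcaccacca

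The second set comes from the members whose rank differed most clearly with p300 loss, the first pair higher and the second pair lower. Capitals mark the searched strings: CAGATG, the Tal1 string, 24 bases before the summit in Pced1b, the Gata string 5 bases and the Runx string 21 bases before the summit in Add3, both read here on the minus strand, and CAACTG, one of the Myb strings, 50 bases before the summit in Glt8d2.
Pced1b intron, chr15:97343086-97343186, plus strand: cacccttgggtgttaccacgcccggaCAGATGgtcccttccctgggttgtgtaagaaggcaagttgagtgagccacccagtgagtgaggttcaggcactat
Add3 intron, chr19:53185641-53185741, plus strand: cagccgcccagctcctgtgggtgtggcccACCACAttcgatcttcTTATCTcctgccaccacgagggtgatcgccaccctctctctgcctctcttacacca
Zfp423 intron, chr8:87708303-87708403, plus strand: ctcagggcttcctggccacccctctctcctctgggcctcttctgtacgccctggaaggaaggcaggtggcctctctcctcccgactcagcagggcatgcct
Glt8d2 intron, chr10:82662614-82662714, plus strand: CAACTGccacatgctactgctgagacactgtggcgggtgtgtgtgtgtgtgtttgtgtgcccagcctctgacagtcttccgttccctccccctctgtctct

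Members were narrow and spread over many genes. Their median width was 485 bp, only 36 were wider than 2 kb and the widest measured 2852 bp. The median distance to the nearest transcript start was 12.5 kb, with quartiles at 6.71 and 25.04 kb, and the median GC content around the summit was 49.3%. There were 50.3 members per Mb of eligible intron (718.1 Mb in all), against 29.7 intergenic regions per Mb of intergenic sequence. First introns held 32.9% of the 35127 members that could be placed in the intron order of a transcript, and 25.2% of the eligible intron sequence. The members near the limits looked alike on either side: the 1493 regions up to 500 bp short of the distance limit, just outside, had a median mean rank of 40.2, and the 1316 members up to 500 bp past it had 41.8. Regions in 3 lists, just outside, numbered 3883 with a median mean rank of 13.9, and the 2850 members in exactly 4 lists had 16.

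Most genes that held members held few of them. The 36101 members fell in 7749 of 20807 protein-coding genes. Of these genes, 2495 held a single member, 2349 held at least 5, 978 at least 10 and 17 at least 50, and the median was 2. The 100 genes with the most members took 11.8% of the assignments. Only 963 members (2.67%) lay in introns of more than 1 gene, but these overlaps shaped the top of the order.

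The highest counts belonged to gene models that span other genes. Gm20388, a predicted gene (ENSMUSG00000092329.1, chr8:119910841-124345722), held 441 members, and 209 of them lay in introns of 32 other genes, among them Gse1 with 74, Ankrd11 with 31 and Galnt2 with 23. Fgfr2, a fibroblast growth factor receptor whose annotated span here ran over 2.96 Mb (chr7:130162451-133123350), held 133 members, and 76 of them lay in 16 other genes, such as Ctbp2 with 13 and Fam53b with 10. Gm37240, another predicted gene, held 75, of which 37 lay in 5 other genes, Fbxw7 with 20 first. Such counts belong to a stretch of chromosome and not to a single gene.

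Next came single genes dense in open introns. Arid1b, a DNA-binding subunit of the SWI/SNF remodelling complex (chr17:4994332-5347656), held 82 members, 24.1 per 100 kb of eligible intron. Foxp1, a forkhead transcription factor, held 76 (13.02 per 100 kb), of which 41 were shared with the overlapping model Gm20696, itself with 51. Gse1, which codes for a coiled-coil protein, held 74 (21.6 per 100 kb). Pde4d, a cAMP phosphodiesterase, held 80 at a lower density of 5.36 per 100 kb. The rest of the first 15 were Nav2 (60 members), the nuclear receptor Rora (59), Wwox (58), Hivep3 (56), Msi2, an RNA-binding protein of hematopoietic stem cells (55), Elmo1, a partner of Dock2 in Rac activation (51), and the homeobox factor Zfhx3 (51).

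**Figure D1:**
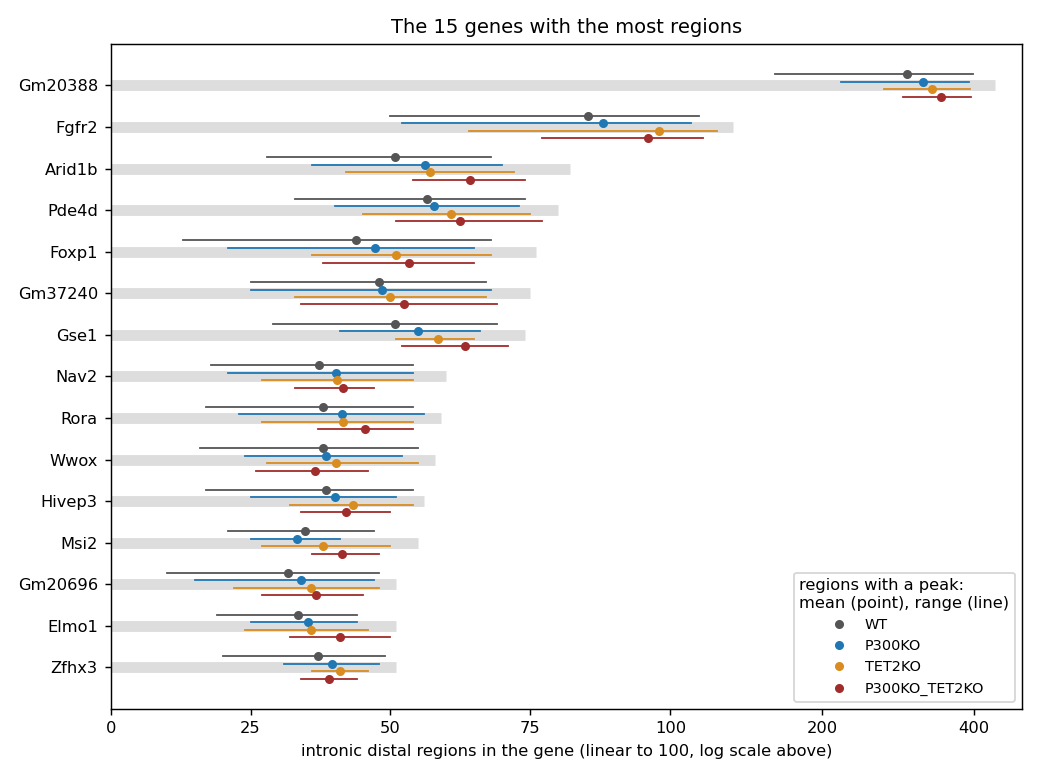
Number of intronic distal regions with a peak (x axis) in each of the 15 genes with the most of them (y axis). Each genotype has a coloured point at the mean of its 4 libraries and a thin line over their range. A grey bar runs to the gene's total. In Foxp1 the WT line ran from 13 of 76 (replicate 1) to 68 (replicate 4). The sets are not marked apart here, but in every gene the set 1 counts lay below the set 2 counts.

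The counts in these genes followed the deposit set. In Arid1b, 28, 41, 66 and 68 of the 82 members had a peak in WT replicates 1 to 4, 49, 36, 70 and 70 in P300KO, 44, 42, 72 and 70 in TET2KO, and 54, 56, 74 and 73 in P300KO_TET2KO. P300KO_TET2KO was the highest genotype within each set. Averaged over both Tet2 backgrounds, p300-deleted libraries had 7.77 ± 4.71 percentage points more of the Arid1b members (SE, limma across 2349 genes, 16 libraries, adjusted p = 0.374). In Foxp1 the counts were 13, 28, 66 and 68 in WT, 39, 21, 64 and 65 in P300KO, 36, 36, 64 and 68 in TET2KO, and 38, 46, 65 and 64 in P300KO_TET2KO, so libraries ran from 13 to 46 in set 1 and from 64 to 68 in set 2, and the genotypes overlapped in both. In Gse1 they were 29, 39, 69 and 66, then 48, 41, 66 and 65, then 54, 51, 65 and 64, and 52, 60, 71 and 70 in the same order of genotypes. None of the 15 genes passed the test of either genotype.

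Per length of intron the order was another. Among genes with at least 10 members, Cxxc5, a CXXC zinc-finger protein, had 34.1 per 100 kb from 10 members, Clic4, a chloride intracellular channel protein, 28.7 from 15, and Itgb3, the integrin beta 3 chain of platelets, 26.5 from 15. Behind Arid1b followed Zfpm1, the Gata1 cofactor FOG1 (23.3, 12 members), the forkhead factor Foxo3 (22.9, 20 members), Swap70 (22.3, 12 members), the retinoid receptor Rxra (22.2, 18 members) and Gna12, a G-protein alpha subunit (21.9, 15 members). Between 1 and 5 of each of these genes' members other than Arid1b's were present in all 16 lists.

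Lists of genes by role differed in density. Of 27 stem and progenitor transcription factors, 18 held 427 members together, 11.6 per 100 kb of their pooled intron, with Foxp1 (76), Etv6 (48), Runx1 (43) and Mecom (36) first. Of 18 myeloid factors, 6 held 38 members (9.05 per 100 kb), led by Mef2a (11), Zeb2 (10), Rara (7) and Spi1 (5). Cytokine receptors and signalling genes held 362 in 29 of 33 genes (8.28 per 100 kb), with Elmo1 (51), Prkce (50), Fyn and Dock2 (25 each). Chromatin regulators mutated in leukemia held 295 in 29 of 31 genes (7.98 per 100 kb), with Arid1b (82), Hdac9 (33) and Hdac4 (19). Erythroid and megakaryocyte genes held 37 in 7 of 19 genes (7.51 per 100 kb), Bcl11a (14) and Zfpm1 (12) first, and 1 further name of that list matched no protein-coding gene. Lymphoid factors held 196 in 19 of 22 genes (7.29 per 100 kb), with Bach2 (39), Tcf4 (24), Notch2 (20) and Ikzf1 (15).

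In pooled density all of these lay above the 3.99 per 100 kb of the 19506 protein-coding genes with an intron, but the median gene of the myeloid and the erythroid list held 0 members, as did the median of all genes. Without Bcl11a and Zfpm1, which the stem and progenitor list also holds, the erythroid list had 11 members and 3.07 per 100 kb, below all genes, whereas the other lists above 3.99 stayed at 6.54 to 10.5 without their 2 leading genes. This check was added after seeing the data. Long genes of neurons, fixed as a contrast, held 320 members in 22 of 22 genes but only 1.0 per 100 kb, led by Dscam (30), Magi2 (28), Dlg2 (28) and Nrxn3 (27). No difference between lists was tested.

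**Figure D2:**
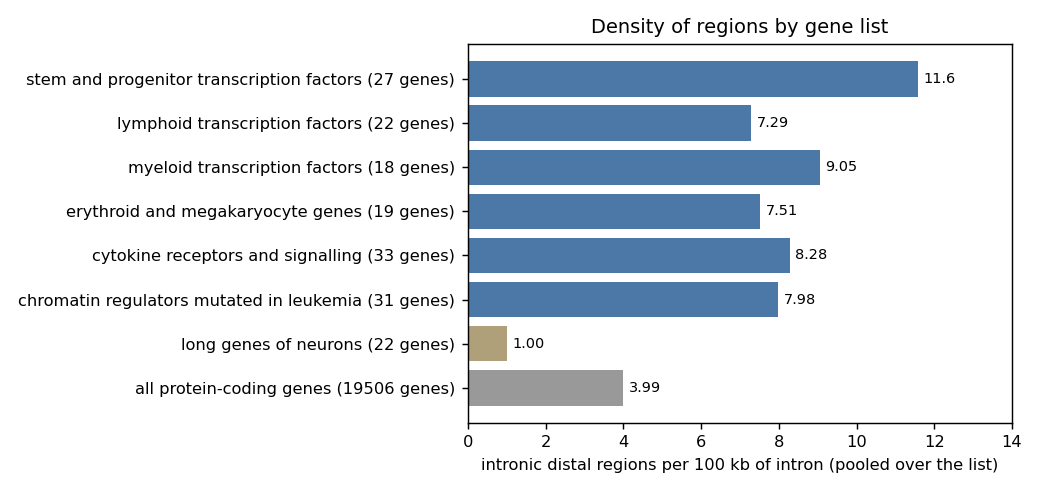
Intronic distal regions per 100 kb of pooled intron, taken over its whole length (x axis, from 0), for each list of genes and for all protein-coding genes (y axis). Stem and progenitor factors stood at 11.6, all genes at 3.99 and long genes of neurons at 1.0.

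The genes the study deleted or followed had few members. Notch1, a receptor of the lymphoid lineage, had 5, of which 3 were present in all 16 lists, and the strongest, chr2:26482902-26484117 in intron 4, had a mean rank of 95.9. Myb, a transcription factor that keeps progenitors cycling, had 3, with 1 in all 16 lists. Tet2 had 3, with 1 in all 16, and Ep300 had 1, in all 16 lists (chr15:81606665-81607122, intron 2, mean rank 68.7). Peaks in the introns of Tet2 and Ep300 say nothing about the deleted exons, so the genotype labels could not be checked from these lists.

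Presence differed between sets first and genotypes second. The share of the 36101 members with a peak was 29.6%, 46.0%, 85.2% and 86.1% in WT replicates 1 to 4, and 54.8%, 39.2%, 88.8% and 85.7% in P300KO. It was 49.4%, 48.2%, 87.3% and 86.6% in TET2KO, and 57.9%, 62.6%, 88.4% and 88.0% in P300KO_TET2KO. Set 1 libraries averaged 48.5% ± 10.5 (SD, n = 8) and set 2 libraries 87.0% ± 1.33 (SD, n = 8), without overlap. Accordingly 5850 members (16.2%) had no peak in set 1, whereas 28 had none in set 2, and of the 2850 members in exactly 4 lists 1653 (58.0%) came from set 2 alone and only 7 from all libraries of 1 genotype.

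Between genotypes WT averaged 61.7% ± 28.4, P300KO 67.1% ± 24.1, TET2KO 67.9% ± 22.0 and P300KO_TET2KO 74.2% ± 16.3 (SD, n = 4). The 4 pairwise differences, 5.43, 6.17, 6.34 and 7.09 percentage points, each had an adjusted p of 0.714 by an exact two-sided permutation test, whose smallest possible p was 0.0286. With labels permuted within the other genotype and the deposit set, Tet2-null libraries had 6.63 points more (exact p = 0.00617, adjusted over both effects 0.0123, smallest possible p 0.00154), and p300-deleted libraries 5.89 points more (exact p = 0.0586, adjusted 0.0586). The Tet2 difference was 12.1 points in set 1 and 1.15 in set 2, and it was lost without TET2KO replicate 1 or 2 or P300KO_TET2KO replicate 1 or 2 (adjusted p = 0.108, 0.105, 0.0802 and 0.142). The p300 difference passed without WT replicate 2, P300KO replicate 2 or P300KO replicate 4 (adjusted p = 0.0309, 0.0386 and 0.0448). In set 1, WT had 98544 and 110055 peaks over 32.0 and 41.1 Mb, of which 45.0% and 63.2% reached a −log10 q of 2, and P300KO_TET2KO had 96986 and 98478 peaks over 46.9 and 49.8 Mb, of which 86.2% and 93.4% did. The part of such list properties in the differences was not tested. With only the 50000 strongest peaks of each list the Tet2 difference was 1.04 points and lost its call (exact adjusted p = 0.0540), while the p300 difference was 1.43 and passed (exact adjusted p = 0.00309), and with labels permuted across sets the Tet2 difference had an exact adjusted p of 0.595. As a share of all regions a library had, members made up 25.1% in WT, 26.0% in both single knockouts and 27.1% in P300KO_TET2KO, with a Tet2 difference of 0.984 points (exact adjusted p = 0.00309) and a p300 difference of 0.982 (exact adjusted p = 0.0525). This Tet2 difference was lost without the same 4 libraries, and this p300 difference passed without WT replicate 2 or 4, P300KO replicate 2 or 4, TET2KO replicate 4 or P300KO_TET2KO replicate 4 (adjusted p from 0.00309 to 0.0494).

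The rank of a peak within its list, by column 8 (−log10 p), is given as a percentile, with 100 for the strongest peak. Over the 7050 members with a peak in all 16 lists (19.5% of members), the mean rank was 65.4, 72.0, 78.3 and 78.1 in WT, 70.4, 65.0, 78.5 and 78.5 in P300KO, 67.4, 67.6, 79.1 and 78.2 in TET2KO, and 69.1, 69.9, 78.5 and 78.1 in P300KO_TET2KO. Set 2 again stood above set 1, and the genotypes overlapped. The pairwise differences ran from -0.408 to 0.824 points (exact permutation test, adjusted p = 1 for each). The p300 difference was 0.236 and the Tet2 difference 0.180 (exact adjusted p = 0.824 for both). Both turned negative by the median (-0.263 and -0.264) and where a −log10 q of 2 or more was required (-0.532 and -0.628), and over the members with a peak in each library they were -2.38 and -3.28 (exact adjusted p = 0.0201 for both).

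**Figure D3:**
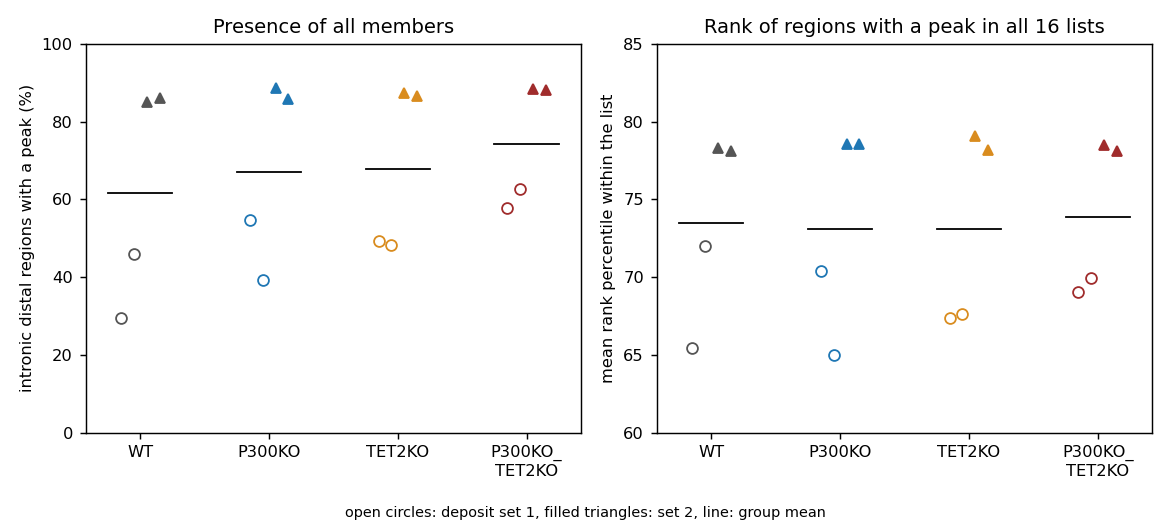
Percent of intronic distal regions with a peak (left) and mean rank percentile of those with a peak in all 16 lists (right) for each library, by genotype on the x axis, with set 1 and set 2 marked apart and a bar at each genotype's mean. In both panels the spread between sets exceeded the spread between genotypes, with 29.6% in WT replicate 1 as the lowest share.

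Compared with intergenic distal regions of the same libraries, members were present less often and ranked lower. Averaged over libraries, 67.7% of members and 70.4% of intergenic regions had a peak, and members had the higher share in 2 of 16 libraries (difference -2.65 points, exact sign-flip permutation test, two-sided p = 0.000183). Where a peak was present, its mean rank was 49.0 in members and 52.1 in intergenic regions, lower in 16 of 16 libraries (difference -3.14 points, exact p = 3.05e-05, the smallest the test can give). Over the regions with a peak in all 16 lists the gap was smaller, at 73.4 against 74.4 (difference -1.04 points, lower in 16 of 16, the same exact p). The difference in presence was -4.23 points in set 1 and -1.08 in set 2. In p300-deleted libraries it was smaller by 2.04 points (exact permutation p = 0.00154, the smallest possible) and in Tet2-null libraries by 0.936 points (exact p = 0.00309). Of members 19.5% were present in all 16 lists, of intergenic regions 24.2%, and of regions near a start 47.2%.

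Among single members the largest block of calls followed p300. limma was fitted to the rank percentiles of the 38694 regions with a peak in all 16 lists, with the deposit set as a term, and calls took an adjusted p under 0.05 over all of them. For the p300 difference, averaged over both Tet2 backgrounds, 53 of the 7050 tested members (0.752%) were lower with p300 loss, beside 0.563% of all tested regions, and 6 (0.0851%) were higher, beside 0.109%. Both shares were close to those of all regions. The lean to lower calls depended on the rank scale: there were 97 lower and 29 higher members on the logit of the rank, and 172 and 120 with ranks taken among the regions present in all 16 lists. These counts are given without those of all tested regions, so they do not show whether the lean was particular to members. The lower members had fallen by a median of 9.0 points, from 1.62 to 29.0, and were strong peaks, with a median mean rank of 81.8 against 74.6 of tested members. With the replicate number as a block, 33 lower and 4 higher calls passed, and 32 of the 33 were among the 53. No call passed within set 1 alone, while 409 lower (5.80% of tested members) and 263 higher (3.73%) passed within set 2 alone, beside 4.27% and 2.41% of all tested regions.

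Single libraries moved these counts, in all tested regions as in members. Over all 38694 tested regions, lower calls went from 218 to 429 without WT replicate 1 and to 80 without TET2KO replicate 3. The higher calls over all regions went from 42 to 133 without WT replicate 1. The 53 lower calls became 103 without WT replicate 1, 24 without WT replicate 3, 30 without P300KO replicate 3, 27, 20 and 23 without TET2KO replicates 2, 3 and 4, and 26, 34, 23 and 24 without P300KO_TET2KO replicates 1 to 4. The 6 higher calls became 32 and 27 without WT replicates 1 and 2, 13 without P300KO replicate 2, and 2 or 3 without P300KO replicate 3 or 4, TET2KO replicate 3 or 4, or any 1 of the P300KO_TET2KO libraries.

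The members that were most clearly lower with p300 loss lay in genes for transcription factors, a remodeller, a glycosyltransferase and a WD-repeat protein. In intron 5 of Zfp423, which codes for a zinc-finger transcription factor (chr8:87708036-87708940), the rank was 86.4, 82.6, 94.0 and 89.6 in WT and 81.2, 78.4, 88.8 and 90.2 in TET2KO. It was 66.4, 65.7, 73.2 and 81.8 in P300KO and 62.3, 72.5, 76.9 and 76.7 in P300KO_TET2KO, below the p300-intact libraries of the same set and Tet2 genotype in 4 of 4 blocks. The difference was -14.5 ± 1.85 points (SE, limma, adjusted p = 0.00320).

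The Glt8d2 region (intron 4, chr10:82662393-82663082), in a gene of the glycosyltransferase 8 family, had the largest fall. Its rank was 65.8, 66.8, 79.6 and 70.6 in WT, 43.2, 28.6, 54.5 and 49.0 in P300KO, 51.7, 56.5, 69.5 and 68.0 in TET2KO, and 21.5, 14.4, 46.3 and 39.2 in P300KO_TET2KO. The difference was -29.0 ± 3.82 (adjusted p = 0.00356), again with no overlap within any of the 4 blocks.

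Ets1, a transcription factor of lymphoid cells and their progenitors, held a called member in intron 1, 4.48 kb from a start (chr9:32705637-32706690). Its rank was 80.2, 82.8, 91.4 and 88.4 in WT and 75.2, 76.4, 84.9 and 82.9 in TET2KO, against 68.3, 67.8, 75.3 and 74.0 in P300KO and 71.7, 62.1, 67.4 and 70.5 in P300KO_TET2KO (difference -13.2 ± 1.9, adjusted p = 0.00368). Chd7, a chromodomain helicase, held one in intron 3 (chr4:8799124-8799937), at 87.9, 87.1, 87.4 and 84.0 in WT and 83.4, 76.7, 88.3 and 82.5 in TET2KO, against 71.8, 65.7, 69.0 and 71.0 in P300KO and 67.5, 69.9, 78.8 and 67.5 in P300KO_TET2KO (difference -14.5 ± 2.1, adjusted p = 0.00368). All 4 of these regions held a Myb string within 100 bp of the summit, as did 24.2% of the 7050 tested members. They were picked by their p, and of all 53 lower members 17 (32.1%) held one.

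**Figure D4:**
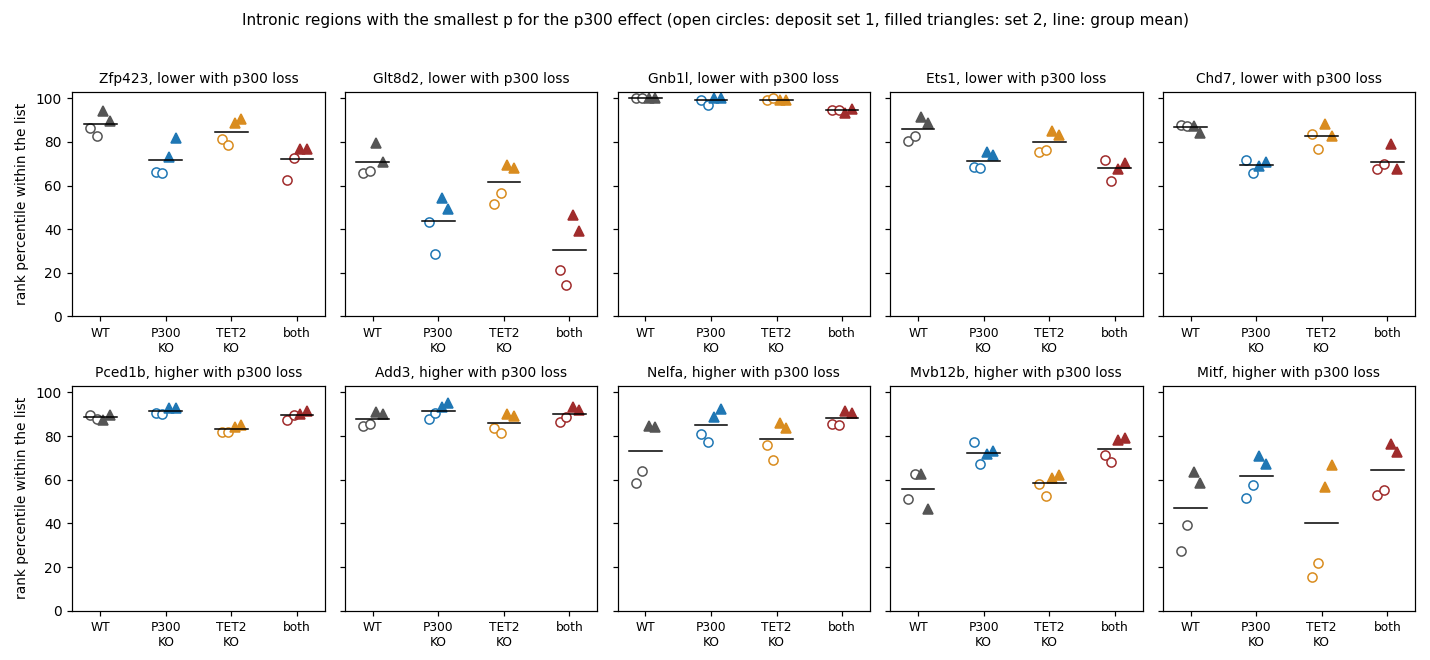
Rank percentile (y axis) of the members most clearly lower and higher with p300 loss, 1 point per library, by genotype on the x axis, with the sets marked apart. P300KO and P300KO_TET2KO points lay below WT and TET2KO points of the same set for Zfp423, Glt8d2, Ets1 and Chd7, and above them for Add3, Nelfa, Mvb12b and Mitf. For Pced1b they lay above the points of the same set and Tet2 genotype, but P300KO_TET2KO replicate 1 (87.2) lay below both set 1 WT points. The Gnb1l points, also drawn, did not part in this way: in set 2, P300KO stood at 99.996 and 99.970, against 99.989 and 99.894 in WT.

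The higher members changed by less at the top of the list and by more in its middle. In Pced1b (intron 3, chr15:97342371-97343554) the rank was 89.6, 87.7, 87.5 and 89.8 in WT and 90.4, 90.1, 92.9 and 92.7 in P300KO, and 82.1, 81.8, 84.1 and 85.1 in TET2KO against 87.2, 89.8, 89.9 and 91.6 in P300KO_TET2KO (difference 4.62 ± 0.785, adjusted p = 0.0113). Add3, which codes for an adducin of the membrane skeleton, held one in intron 1 (chr19:53185431-53186101) with a difference of 3.97 ± 0.749 (adjusted p = 0.0195). Nelfa, a subunit of the negative elongation factor that holds RNA polymerase at starts, held one in intron 2 (chr5:33920664-33921732, difference 10.7 ± 2.09, adjusted p = 0.0236).

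Mvb12b, a subunit of the ESCRT-I sorting complex, held the member whose p300-intact and p300-deleted libraries did not overlap at all (intron 2, chr2:33843028-33843826). Its rank was 51.2, 62.6, 62.8 and 46.6 in WT and 58.0, 52.5, 60.8 and 62.1 in TET2KO, against 77.4, 67.1, 72.0 and 73.3 in P300KO and 71.1, 68.2, 78.2 and 78.9 in P300KO_TET2KO (difference 16.2 ± 3.21, adjusted p = 0.0252). In intron 1 of Mitf, a transcription factor of mast cells and melanocytes (chr6:97866469-97867476), the difference was 19.4 ± 4.24 (adjusted p = 0.0440), and it was lost with the replicate number as a block (adjusted p = 0.0732) and on leaving out most single libraries.

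A further 4 called members had mean ranks from 92.7 to 98.2. The Gnb1l region (intron 2, chr16:18533121-18533396) was 276 bp wide. Its rank averaged 99.95 in WT and 99.0 with p300 loss alone, 99.4 with Tet2 loss alone and 94.4 in P300KO_TET2KO, where all 4 libraries (94.6, 94.7, 93.4 and 95.1) lay below the other 12. Its p300 difference was -2.92 ± 0.395 (adjusted p = 0.00356), its Tet2 difference -2.59 (adjusted p = 0.00680), and P300KO_TET2KO differed from TET2KO by -4.90 (adjusted p = 0.000604). The Jarid2 region (intron 3, chr13:44869492-44870098), in the gene for a cofactor of the polycomb complex PRC2, the Fgfr2 region (intron 2, chr7:130834347-130834804) and the Cntnap5b region (intron 10, chr1:100180017-100180499) likewise had their 4 lowest ranks in P300KO_TET2KO, which differed from TET2KO by -3.88 (adjusted p = 0.000604), -7.30 (adjusted p = 0.00591) and -5.66 points (adjusted p = 0.0238). On the logit of the rank, which stretches the top of the list, 0 members passed for P300KO_TET2KO against TET2KO in either direction, with adjusted p of 0.638, 0.195, 0.734 and 0.847 for the Gnb1l, Jarid2, Fgfr2 and Cntnap5b regions, and the p300 call of Gnb1l was lost too (adjusted p = 0.180). None of these showed a passing interaction. On the rank itself the Gnb1l, Jarid2 and Fgfr2 calls against TET2KO kept their side of the threshold with the replicate block, whereas Cntnap5b did not (adjusted p = 0.0634).

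The 4 pairs of genotypes that differed at 1 locus gave few calls each. P300KO_TET2KO against TET2KO had 5 lower members (0.0709% of those tested), beside 0.0569% of all regions, namely the Gnb1l, Jarid2, Fgfr2, Cntnap5b and Glt8d2 regions, and 1 higher, beside 0.00775%, the Pced1b region (difference 6.39, adjusted p = 0.0296). With the replicate block 3 lower and 0 higher passed. Without WT replicate 1 there were 9 lower and 3 higher, without any 1 of the TET2KO libraries or P300KO_TET2KO replicate 1 or 4 there were 2 or 3 lower, and the higher call was lost without P300KO replicate 3 or 4, WT replicate 4, any TET2KO library, or P300KO_TET2KO replicate 2, 3 or 4. P300KO_TET2KO against P300KO had 8 lower members, beside 0.0905%, and 0 higher, beside 0.0103%. The 8 became 13 without WT replicate 1 and 4 or 5 without any 1 of the P300KO libraries or P300KO_TET2KO replicate 1, 3 or 4. P300KO against WT had 0 members in either direction, beside 0.0103% lower in all regions and 0.0% higher, and TET2KO against WT had 0, beside 0.0% in either direction. For P300KO against WT other choices gave calls, with 66 lower and 32 higher members when ranked among the regions present in all 16 lists, 25 lower on the logit of the rank, and 107 lower and 46 higher within set 2. These counts are given without those of all tested regions and do not set members apart from them. At an unadjusted p under 0.05 the same limma fit gave 385 higher and 677 lower members in P300KO against WT, and 212 and 461 in TET2KO against WT. These were 15.1% and 9.55% of the tested members, beside 13.2% and 8.76% of all tested regions. No member passed the test of whether p300 loss differed between Tet2 backgrounds, beside 0.0% of all regions.

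The Tet2 difference had 12 lower members, beside 0.199% of all regions (0.170% of members), and 2 higher, beside 0.0465%. Without WT replicate 1 there were 24 and 7, without P300KO replicate 4 or P300KO_TET2KO replicate 1 there were 7 lower, and without any 1 library other than WT replicates 1 and 4 and TET2KO replicate 4 there was at most 1 higher. In intron 1 of Stk24, a kinase of the STE20 family (chr14:121365252-121366897), Tet2-intact libraries had ranks of 82.2, 82.5, 89.6 and 89.6 (WT) and 86.5, 82.9, 85.4 and 89.9 (P300KO), above all of the Tet2-null ones at 65.3, 61.3, 71.9 and 81.0 (TET2KO) and 63.2, 65.8, 75.9 and 69.2 (P300KO_TET2KO). The difference was -16.9 ± 2.02 (limma, adjusted p = 0.000944). Lower with Tet2 loss were also the Jarid2 region (-2.38 ± 0.310, adjusted p = 0.00186), the Fgfr2 region (-5.23 ± 0.747, adjusted p = 0.00379), both lost on the logit of the rank (adjusted p = 0.0571 and 0.0838), and a region in Bcar3, an adaptor protein (chr3:122339921-122340955, -14.8 ± 2.36, adjusted p = 0.00942).

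The 2 higher members lay in Cap1, an actin regulator, and Sv2c, a synaptic vesicle glycoprotein. The Cap1 region (intron 1, chr4:122872852-122873487) had ranks of 53.6, 36.7, 49.7 and 61.5 in WT and 57.3, 39.6, 49.0 and 30.4 in P300KO, against 61.2, 70.9, 71.8 and 59.0 in TET2KO and 75, 74.0, 78.9 and 77.2 in P300KO_TET2KO (23.8 ± 4.41, adjusted p = 0.0234). The Sv2c region (intron 4, chr13:96010674-96011622) had 27.3, 53.7, 66.5 and 59.1 in WT, 45.1, 37.6, 61.3 and 61.7 in P300KO, 91.9, 94.8, 62.5 and 94.8 in TET2KO, and 69.7, 87.5, 90.7 and 64.5 in P300KO_TET2KO (30.5 ± 6.15, adjusted p = 0.0436). Within the Tet2-null groups the values split widely, with TET2KO replicate 3 and P300KO_TET2KO replicate 4 within the range of the Tet2-intact libraries, and the Sv2c call was lost with the replicate block (adjusted p = 0.0711).

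Whole-genotype gains and losses of a peak were rare. A member counted as gained in a knockout where its 4 libraries all had a peak and the 4 it was compared with had none, and as lost in the reverse case. P300KO against WT had 9 gained, beside 0.0311% of all regions, and 6 lost, beside 0.0247%. TET2KO against WT had 11, beside 0.0319%, and 4, beside 0.0168%. P300KO_TET2KO against TET2KO had 59 (0.163% of members), beside 0.136%, and 10, beside 0.0303%, and P300KO_TET2KO against P300KO had 61, beside 0.152%, and 27, beside 0.0726%. These were weak peaks, with median mean ranks from 15.5 to 26.9 over the 8 sets.

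The strongest of them were in genes of several kinds. In intron 4 of Rbfox1, an RNA-binding splicing regulator of neurons and muscle, a region at chr16:6889177-6889745 had a peak in 8 of 8 Tet2-null lists and 0 of 8 Tet2-intact lists, with a mean rank of 47.5. Elf1, an ETS-family factor, held the strongest region gained in P300KO_TET2KO against TET2KO (chr14:79532251-79532683, mean rank 38.6), and Extl1 the strongest lost (chr4:134361205-134361644, mean rank 53.1), which was present at 45.2, 28.3, 18.1 and 59.5 in TET2KO. Lost in P300KO_TET2KO against P300KO were a strong region of Skint3 (chr4:112287672-112288956, mean rank 83.3), one of Ssbp3 (chr4:106951401-106951956, 70.3) and one of Cmah (chr13:24380697-24381632, 69.4). Among the 8 Tet2-null lists each of these 3 regions had a peak only in TET2KO replicate 4, at ranks of 76.5, 58.4 and 74.0, while all 8 Tet2-intact lists had the Skint3 and Cmah peaks and all but WT replicate 1 the Ssbp3 peak. TET2KO replicate 4 thus stood with the Tet2-intact lists at these regions, and the genetic background of the libraries was not measured here.

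Counted by gene, 5 of the 2349 genes with at least 5 members changed. With p300 loss 2 genes had more of their members (0.0851% of genes tested) and 0 fewer (0.0%), and with Tet2 loss 3 had more (0.128%) and 0 fewer (0.0%). P300KO_TET2KO against TET2KO had 0 in either direction (0.0%). At an unadjusted p under 0.05 the limma fit gave 420 genes with more and 22 with fewer for p300, and 392 and 11 for Tet2. Centred on each library's share of all members, these were 159 and 185 for p300 and 129 and 153 for Tet2, with 2 genes called as having more and 0 fewer for p300, and 2 more and 3 fewer for Tet2. With the replicate block 0 genes passed for p300 and 2 for Tet2. The p300 count became 68 without P300KO replicate 2, 12 without P300KO_TET2KO replicate 4, 6 without WT replicate 4 and 4 without WT replicate 2 or 3 or TET2KO replicate 1. It became 1 without TET2KO replicate 2 and 0 without WT replicate 1, P300KO replicate 3, TET2KO replicate 3 or 4, or P300KO_TET2KO replicate 2. The Tet2 count became 7 without P300KO replicate 1 or 3, 8 without WT replicate 4, 6 without TET2KO replicate 4 and 11 without P300KO_TET2KO replicate 4.

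The p300 genes were Kpna3, an importin alpha of nuclear import, and Nedd4, a ubiquitin ligase. Of the 7 Kpna3 members, 1, 1, 2 and 5 had a peak in WT and 1, 1, 4 and 4 in TET2KO, against 4, 1, 6 and 6 in P300KO and 5, 6, 7 and 6 in P300KO_TET2KO (39.3 ± 7.12 points, limma, adjusted p = 0.0204). Of the 6 Nedd4 members, 1, 2, 4 and 4 had one in WT and 3, 4, 4 and 4 in TET2KO, against 5, 4, 6 and 6 in P300KO and 4, 4, 5 and 6 in P300KO_TET2KO (29.2 ± 5.44, adjusted p = 0.0204). Under the replicate block their adjusted p were 0.0504 and 0.0513.

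Cwc22, a spliceosome protein gene whose locus is known to vary in copy number between mouse strains, had the largest Tet2 difference. Of its 9 members, 0, 0, 2 and 3 had a peak in WT and 0, 0, 1 and 0 in P300KO, against 6, 7, 9 and 3 in TET2KO and 3, 5, 7 and 7 in P300KO_TET2KO (56.9 ± 8.80 points, adjusted p = 0.00272). TET2KO replicate 4 was the lowest of the TET2KO libraries, 5 of the 9 members had no peak in any Tet2-intact list, and the median mean rank of the 9 was 11.5, so these were weak peaks. Copy number was not measured here, and its part in the difference was not tested.

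In Rbfox1, the called gene with the most members, 4, 11, 16 and 16 of 26 had a peak in WT, 9, 5, 18 and 18 in P300KO, 13, 14, 26 and 23 in TET2KO, and 15, 19, 24 and 25 in P300KO_TET2KO (29.8 ± 5.22, adjusted p = 0.00861), and 20 of the 26 were in more Tet2-null than Tet2-intact lists. D430041D05Rik, whose 7 members were at 1, 2, 4 and 6 in WT, 2, 2, 5 and 4 in P300KO, 2, 3, 6 and 6 in TET2KO, and 5, 5, 7 and 7 in P300KO_TET2KO, was called at 26.8 ± 5.49 (adjusted p = 0.0464) but neither with the replicate block (adjusted p = 0.0632) nor after centring (adjusted p = 0.0951).

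By role, the called members and genes fell mostly outside the lists. Of the 44 tested members in lymphoid factors 2 were lower with p300 loss, those of Ets1 and Ebf1, a factor of B-lineage commitment, beside 0.752% of tested members and 0.563% of all tested regions. Of the 57 in chromatin regulators 1 was lower, that of Jarid2. Stem and progenitor factors, myeloid factors, erythroid genes, cytokine receptors and long genes of neurons had 0, and of all genes in the lists only Rbfox1, in the neuron list, passed the count by gene.

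Strings that transcription factors bind were counted within 100 bp of the summit on both strands: GAGGAAGT for Spi1, AGATAA for Gata factors, CAGATG for Tal1, GAAANNGAA for Irf, TTGCNNAA for Cebp, TAACGG for Myb with its variant forms TAACTG, also CAACGG, as well as CAACTG for the same family, TGTGGT for Runx, TGANTCA for Ap1, and the NFkB and Ctcf motifs. The Gata string can share its last 3 bases with the start of a Myb string. Of members 29.1% held the Runx string, 23.1% a Myb string, 18.2% Tal1, 10.9% Gata, 10.2% Spi1, 9.75% Cebp, 9.20% Ap1, 7.89% Irf, 4.47% Ctcf and 1.73% NFkB. The shares of all regions were 25.2%, 21.5%, 16.7%, 9.17%, 9.06%, 8.98%, 8.40%, 7.38%, 5.18% and 1.82% in the same order, and intergenic distal regions differed most in Ctcf, a factor of chromatin loop anchors, at 6.66%. Among members, Ctcf stood in 7.66% of those in all 16 lists and 1.35% of those in 4 to 7 lists. A string in a window is a description and not a bound site.

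The strings of the members that fell with p300 loss are given as a description, with no test. Of the 53 lower members 17 (32.1%) held a Myb string, against 24.2% of the 7050, 15 (28.3%) a Tal1 string, against 18.6%, and 1 (1.89%) a Gata string, against 11.0%. None held the Cebp or the Ctcf string, against 10.5% and 7.66%. The Runx string stood in 17 (32.1%), against 32.3%, Spi1 in 6 (11.3%), against 11.5%, Ap1 in 7 (13.2%), against 9.60%, Irf in 2 (3.77%), against 8.11%, and NFkB in 2, against 1.80%.

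Among the strongest 10000 member peaks of each list, the Gata string, bound by Gata2 in stem cells and Gata1 in erythroid and megakaryocyte cells, was more frequent with p300 loss. Its share was 10%, 11.25%, 9.52% and 9.37% in WT and 11.26%, 11.88%, 10.89% and 10.60% in P300KO, and 10.86%, 10.83%, 9.17% and 9.16% in TET2KO against 11.56%, 11.46%, 10.86% and 10.96% in P300KO_TET2KO. Means were 10.04 ± 0.853, 11.2 ± 0.552, 10.01 ± 0.970 and 11.2 ± 0.351 percent (SD, n = 4). The p300 difference was 1.16 points and positive in 4 of 4 blocks of set and Tet2 genotype, at 0.945, 1.30, 0.665 and 1.75 points (exact permutation test, adjusted over 10 strings p = 0.0154). The call was lost with labels permuted across sets (exact adjusted p = 0.0694), and the string was looked at with this pattern already known from these libraries. With the replicate number as a block the difference was at the smallest p that the 256 arrangements can give (0.00781, exact adjusted p = 0.0781). Within set 1 it was 0.805 points and within set 2 1.52 points, where no test could pass (smallest possible p 0.0556). Of the erythroid markers, Hbb-bt and Klf1 had a start peak in all 16 lists and so cannot show a change. Hba-a1 had one in 3, 2, 1 and 1 lists of WT, P300KO, TET2KO and P300KO_TET2KO and Slc4a1 in 1, 1, 0 and 1, and the part of cell composition was not tested.

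**Figure D5:**
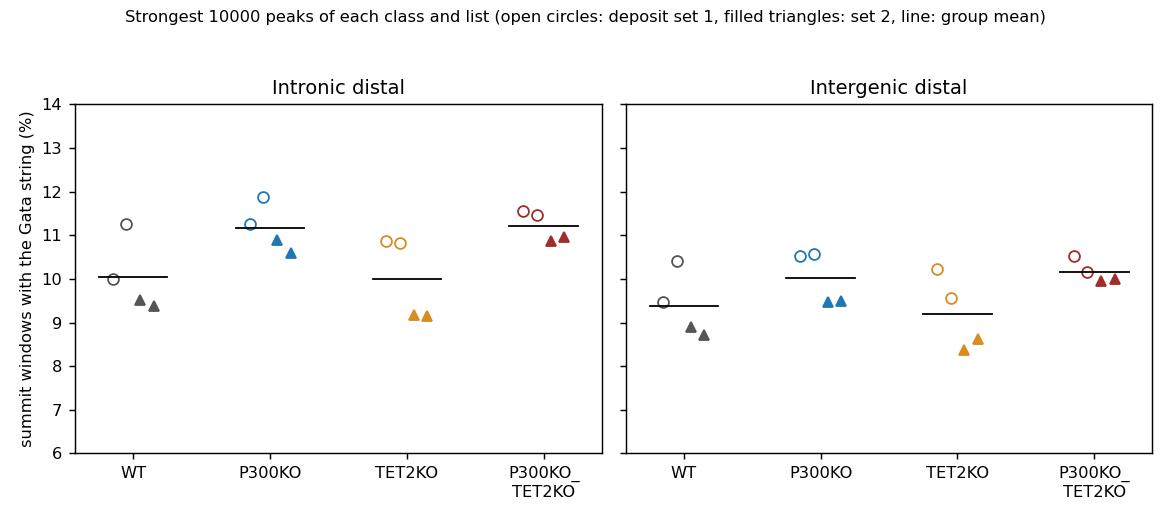
Percent of the 10000 strongest peaks of each library (y axis) that held the Gata string within 100 bp of the summit, by genotype on the x axis. Members are on the left and intergenic distal regions on the right, with set 1 and set 2 marked apart and a bar at each mean. In members the P300KO and P300KO_TET2KO means were 11.2 each, against 10.04 in WT and 10.01 in TET2KO. Within each genotype the set 1 points lay above the set 2 points.

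Intergenic peaks moved in the same direction, so the Gata difference was not particular to introns. There it was 0.801 points (exact adjusted p = 0.0309), and the intronic difference exceeded it by 0.363 (exact adjusted p = 0.0772). For Spi1, bound by the myeloid and stem cell factor PU.1, the p300 difference was 0.535 points in members (exact adjusted p = 0.0849) and 0.195 in intergenic peaks, and the gap of 0.340 passed (exact adjusted p = 0.0309). With Tet2 loss Spi1, NFkB and Ap1 strings were more frequent in members by 0.565, 0.256 and 0.459 points (exact adjusted p = 0.0412 for each). Labels were permuted within the sets, but these Tet2 differences were not split by set, and no alternative setting was run for them. In intergenic peaks the same Tet2 differences were 0.355, 0.2175 and 0.325 points, and the gap between the classes was not tested. No string differed in its p300 effect between Tet2 backgrounds, with the lowest exact adjusted p of 0.140 for NFkB (-0.273 points).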

How the data were processed

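ATAC-seq of mouse HSPCs gave 16 peak lists, 4 per genotype. According to the methods and the submitters' processing notes, the authors trimmed reads with cutadapt 1.9.1, aligned them to mm10 with Bowtie2 2.2.6, removed duplicates, shifted reads for the Tn5 cut and called peaks in each library with MACS2 2.1.0 in the ENCODE pipeline. The deposited narrowPeak files hold a peak score (column 5), a fold enrichment over the local background, which is a ratio (column 7), the −log10 of the p-value (column 8) and the −log10 of the q-value (column 9). Read totals are not given in these files, so depth is unknown, and list length and the share of peaks at a −log10 q of 2 stand in for it.

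Summits that shared an interval were counted as 1 peak. Intervals were merged at 1 bp overlap, and regions were classed with the GENCODE annotation of mm10. A peak's rank percentile was 100 times its rank by column 8 over the number of peaks of its list, which removes each list's own scale but not its length. Samples were grouped by GEO's genotype labels. Exact permutation tests (two-sided) were run over libraries, and limma 3.58.1 (R 4.3.3, eBayes with trend, deposit set as a term, Benjamini-Hochberg adjustment) was run over 38694 regions and over 2349 genes. Python 3.11.15, numpy 2.4.6, pandas 2.3.3, scipy 1.17.1 and matplotlib 3.10.9 were used. Tested on simulated shifts of 5, 10 and 20 rank points in 200 of the 38694 regions, P300KO_TET2KO against TET2KO, limma recovered 43, 69 and 139 with 2, 2 and 3 false calls. The simulated noise was independent and normal, with the same spread in both sets and no ceiling at 100. It does not give the rate of false calls in the real lists.

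Same-numbered libraries deviated together from their group means (r from 0.137 to 0.564), but so did different numbers of the same deposit set (0.192 to 0.562), and without the set the same-number r ran from -0.125 to 0.0423. The numbers could therefore not be told apart from the set. Values with the replicate number as a block are given where they changed a call.

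The region rule and the gene lists were chosen with earlier results of these data known, and the Gata pattern was among those results. Named were the 15 genes with the most members, the 10 densest genes with at least 10, up to 4 genes a list, the called genes, Notch1, Myb, Ep300 and Tet2, up to 5 members a direction by p, and up to 3 gained and 3 lost members a comparison by mean rank. Ebf1 was named after its value was seen. Alternatives tried were stricter peaks, coverage of the region, distance to a start, string windows, the permutation scheme, the rank scale, the set term, each set alone, the replicate block and each library left out. A few genes that met these rules are not reported here. No sequence of chromosome 18 is printed.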

Additional observations from a re-analysis of the deposited data

Results flagged for a closer look

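In groups of 4 libraries, 8 of 240 groups had 1 library far from the other libraries of its genotype, its gap to the nearest of them divided by the group's range exceeding Dixon's critical value. Chance alone gives about 1 in 20 such groups for continuous values. In TET2KO replicate 3 the Sv2c region ranked at 62.5, against 91.9 to 94.8 in the other TET2KO libraries, and the Cntnap5b region at 91.5, against 94.0 to 94.2. In WT replicate 1 the share of the strongest member peaks with the Irf string was 7.40%, against 7.93% to 8.0%.

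The other flagged values were counts of a gene's members that differed by 1. In such small counts any single differing library exceeds the critical value by construction, so these 5 values carry no weight. TET2KO replicate 4 had a peak in 5 Notch1 members, against 4 in each of the other TET2KO libraries. P300KO_TET2KO replicate 2 had 2 Myb members, against 3. TET2KO replicate 3 had 3 Tet2 members, against 2, and TET2KO replicate 1 had 3 Nedd4 members, against 4. P300KO replicate 3 had 1 Cwc22 member, against 0 in the other P300KO libraries. No cause was tested for any of these.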

How the results depend on the processing

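Depth is unknown, and set 1 lists, in which many members had no peak, limit what presence can show. In percent of members with a peak, the p300 difference passed with peaks of a −log10 q of at least 2 (7.46 points, exact adjusted p = 0.0355), with the 50000 strongest peaks of each list (1.43, exact adjusted p = 0.00309) and with at least 50% of the region covered (7.31, exact adjusted p = 0.0432). The Tet2 difference was lost with the 50000 strongest peaks (1.04, exact adjusted p = 0.0540) and with labels permuted across sets (6.63, exact adjusted p = 0.595), and was 12.1 within set 1 and 1.15 within set 2. Within 1 set the smallest possible exact p is 0.0556, so no permutation test could pass there. As a share of a library's regions, the p300 difference passed with peaks at a −log10 q of 2 or more (1.45), with the 50000 strongest peaks (0.593) and a limit of 1000 bp from a start (1.24), and the Tet2 difference was lost with the 50000 strongest peaks (0.204) and across sets (0.984), and was 1.75 in set 1 and 0.213 in set 2, each at that smallest p. The cause was not tested for any of these.

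The small differences in mean rank changed sign. With −log10 q of at least 2 the p300 and Tet2 differences were -0.532 and -0.628, and by the median -0.263 and -0.264. Over the members with a peak in each library they were -2.38 and -3.28 (exact adjusted p = 0.0201 for both), with -2.03 for P300KO_TET2KO against TET2KO and -2.92 for P300KO_TET2KO against P300KO; a library with more members present includes more weak ones by construction. Within set 2 the values were 0.301 for P300KO against WT, 0.401 for TET2KO against WT, -0.352 for P300KO_TET2KO against TET2KO and -0.252 for P300KO_TET2KO against P300KO, and -0.0256 for p300.

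Of the p300 differences in strings, Gata was lost with labels permuted across sets (1.16 points, exact adjusted p = 0.0694). With the replicate block it was unchanged in size (1.16) and at the smallest p that design allows (exact adjusted p = 0.0781), and it was 0.805 in set 1 and 1.52 in set 2, where no test could pass. Over all member peaks Tal1 (-0.218) and Cebp (0.526) passed, and NFkB (-0.0601) and Ctcf (-0.0272) changed sign. In windows of 50 bp either side Spi1 (0.665) and Ap1 (0.242) passed, and Irf (-0.0213) and Runx (0.158) changed sign. NFkB (-0.0175) and Runx (0.177) changed sign within set 1, and Irf (-0.188) within set 2.

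Counts of gained and lost members grew where the rule asked for fewer libraries, as its construction implies. They are given here without the shares over all regions and do not set members apart from other regions. With at least 3 of 4 libraries against at most 1 of 4 there were 751 gained and 471 lost in P300KO against WT, 580 gained and 469 lost in TET2KO against WT, 1239 gained and 442 lost in P300KO_TET2KO against TET2KO and 1082 gained and 522 lost in P300KO_TET2KO against P300KO. Within set 1 there were 1309 gained and 310 lost in P300KO against WT, 1790 gained and 337 lost in TET2KO against WT, 2085 gained and 267 lost in P300KO_TET2KO against TET2KO and 2056 gained and 263 lost in P300KO_TET2KO against P300KO. Within set 2 there were 1012 gained and 720 lost in P300KO against WT, 768 gained and 548 lost in TET2KO against WT, 1003 gained and 891 lost in P300KO_TET2KO against TET2KO and 825 gained and 807 lost in P300KO_TET2KO against P300KO. With −log10 q of at least 2 the counts that moved were 1 lost in P300KO against WT, 4 gained and 1 lost in TET2KO against WT, 4 lost in P300KO_TET2KO against TET2KO and 10 lost in P300KO_TET2KO against P300KO, and with the 50000 strongest peaks 44 gained and 20 lost in P300KO against WT, 9 lost in TET2KO against WT, 18 lost in P300KO_TET2KO against TET2KO and 36 gained in P300KO_TET2KO against P300KO.

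Calls on single members moved by more than 1.5 times as follows. Shares over all tested regions are given above only for the p300 difference in set 2, so the other counts do not set members apart. Within set 1 there were 0 higher and 0 lower for P300KO_TET2KO against TET2KO, 0 lower for P300KO_TET2KO against P300KO, 0 higher and 0 lower for the p300 difference and 0 higher and 0 lower for the Tet2 difference. Within set 2 there were 46 higher and 107 lower for P300KO against WT, 1 higher and 1 lower for TET2KO against WT, 35 higher and 94 lower for P300KO_TET2KO against TET2KO, 15 higher and 42 lower for P300KO_TET2KO against P300KO, 263 higher and 409 lower for the p300 difference and 15 higher and 44 lower for the Tet2 difference. Without the set term there were 0 higher and 1 lower for P300KO_TET2KO against TET2KO, 2 lower for P300KO_TET2KO against P300KO, 0 higher and 0 lower for the p300 difference and 0 higher and 2 lower for the Tet2 difference. On the logit of the rank there were 25 lower for P300KO against WT, 0 higher and 0 lower for P300KO_TET2KO against TET2KO, 1 higher and 2 lower for P300KO_TET2KO against P300KO, 29 higher and 97 lower for the p300 difference and 5 higher and 19 lower for the Tet2 difference. Ranked among the regions with a peak in all 16 lists there were 32 higher and 66 lower for P300KO against WT, 4 lower for TET2KO against WT, 2 higher for P300KO_TET2KO against TET2KO, 4 higher and 14 lower for P300KO_TET2KO against P300KO, 120 higher and 172 lower for the p300 difference and 23 higher and 58 lower for the Tet2 difference. With −log10 q of at least 2 there were 13 lower for P300KO against WT, 15 higher for the p300 difference and 26 lower for the Tet2 difference.

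For genes, counts of calls were 1 higher for the p300 difference and 5 higher for the Tet2 difference with −log10 q of at least 2, 9 higher for the p300 difference and 19 higher and 1 lower for the Tet2 difference over genes with at least 10 members, 3 lower for the Tet2 difference after centring on the share of all members, 0 higher for the p300 difference and 0 higher for the Tet2 difference in set 1, 29 higher and 20 lower for the p300 difference, 21 higher and 18 lower for the Tet2 difference and 16 higher and 14 lower for P300KO_TET2KO against TET2KO in set 2, 0 higher for the p300 difference and 0 higher for the Tet2 difference without the set term, and 9 higher and 3 lower for the p300 difference and 0 higher for the Tet2 difference with the 50000 strongest peaks. Of the 28 named calls on members and genes, 28 were lost within set 1, 25 without the set term and 4 within set 2, of the 23 on members 9 were lost on the logit of the rank, of the 5 on genes 5 were lost with the 50000 strongest peaks, and none changed direction under the alternatives that could be computed. Leaving out 1 library lost from 2 of the 28 (WT replicate 2) to 11 (TET2KO replicate 2 or P300KO_TET2KO replicate 2). With −log10 q of at least 2, 3 of the 22 that could be fitted were lost.

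With the replicate number as a block, calls on members were 0 higher and 3 lower for P300KO_TET2KO against TET2KO, 33 lower for the p300 difference and 1 higher for the Tet2 difference, and calls on genes 0 higher for the p300 difference. Of the 28 named calls, 8 were lost under the block: Mitf, Sv2c, Kpna3, Nedd4 and D430041D05Rik, and, for P300KO_TET2KO against TET2KO, Cntnap5b, Glt8d2 (adjusted p = 0.0600) and Pced1b (adjusted p = 0.0676). The block changed no call on presence (p300 5.89, Tet2 6.63 points, exact adjusted p = 0.141 and 0.0312) or on mean rank.

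Leaving out 1 library at a time gave ranges. Those of member counts are given without the counts over all regions. Presence ran from -5.27 to 14.7 for P300KO against WT, -4.53 to 14.3 for TET2KO against WT, -0.203 to 12.8 for P300KO_TET2KO against TET2KO, -2.21 to 14.3 for P300KO_TET2KO against P300KO, 3.84 to 7.93 for the p300 difference and 4.58 to 8.67 for the Tet2 difference. The first turned negative without WT replicate 1 or P300KO replicate 3 or 4, the second without WT replicate 1 or TET2KO replicate 3 or 4, the third without TET2KO replicate 2 and the fourth without P300KO replicate 2. The share of regions ran from 0.619 to 1.35 for the p300 difference and 0.621 to 1.35 for the Tet2 difference. Mean rank ran from -3.03 to 2.36 for P300KO against WT, -3.09 to 1.49 for TET2KO against WT, -1.07 to 2.83 for P300KO_TET2KO against TET2KO, -1.94 to 2.57 for P300KO_TET2KO against P300KO, -0.586 to 1.06 for the p300 difference and -0.642 to 1.0 for the Tet2 difference. String shares ran from 0.339 to 0.731 for Spi1, 1.01 to 1.32 for Gata, -0.280 to -0.0825 for Tal1, -0.0725 to 0.0775 for Irf, 0.284 to 0.674 for Cebp, -0.0200 to 0.0325 for NFkB, -0.311 to -0.101 for Myb, -0.412 to -0.0375 for Runx, 0.115 to 0.253 for Ap1 and 0.194 to 0.584 for Ctcf, Gata passed without each library in turn, Spi1 passed without WT replicate 2 or P300KO replicate 3 (exact adjusted p = 0.0206 and 0.0154) and Cebp without WT replicate 2 (exact adjusted p = 0.0206). Gained and lost counts ran from 10 to 121 for P300KO against WT gained, 7 to 77 for P300KO against WT lost, 12 to 64 for TET2KO against WT gained, 4 to 73 for TET2KO against WT lost, 69 to 187 for P300KO_TET2KO against TET2KO gained, 12 to 77 for P300KO_TET2KO against TET2KO lost, 69 to 175 for P300KO_TET2KO against P300KO gained and 29 to 121 for P300KO_TET2KO against P300KO lost. Member calls ran from 0 to 0 for P300KO against WT higher, 0 to 0 for P300KO against WT lower, 0 to 0 for TET2KO against WT higher, 0 to 1 for TET2KO against WT lower, 0 to 3 for P300KO_TET2KO against TET2KO higher, 2 to 9 for P300KO_TET2KO against TET2KO lower, 0 to 4 for P300KO_TET2KO against P300KO higher, 4 to 13 for P300KO_TET2KO against P300KO lower, 2 to 32 for the p300 difference higher, 20 to 103 for the p300 difference lower, 0 to 7 for the Tet2 difference higher and 7 to 24 for the Tet2 difference lower. Gene calls ran from 0 to 68 for the p300 difference higher, 0 to 0 for the p300 difference lower, 2 to 11 for the Tet2 difference higher, 0 to 1 for the Tet2 difference lower, 0 to 1 for P300KO_TET2KO against TET2KO higher and 0 to 0 for P300KO_TET2KO against TET2KO lower. The highest Tet2 gene count came without P300KO_TET2KO replicate 4, and WT replicate 1 gave the highest member count for every contrast and direction in which a count above the full one was seen, except TET2KO against WT. The lower presence and rank of intronic against intergenic regions kept their direction and their side of the threshold under every alternative run.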
